A study of Rattus norvegicus with 14 samples.

Results

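The signals of 5 enzymes on the route from acetyl-CoA to cholesterol, Acat2, Idi1, Sqle, Cyp51 and Msmo1, were examined in the livers of rats fed orotic acid. They are 5 of 2670 genes named on the table and were read from the 12 probe sets, of 4502, whose platform annotation gives the symbol of one of these genes. All 5 genes passed the filter on low signals, through the probe set with the highest mean, and 1909 features were tested in all. The genes had been picked because they were lower in fed Kyoto than in fed Wistar rats (Acat2, Idi1, Cyp51 and Msmo1) or lower at day 14 in Kyoto rats (Sqle and Msmo1). Values from those comparisons are therefore descriptions. Where counts past a threshold are given for them, nothing about these genes is read from the counts.

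The study used orotic acid, a pyrimidine precursor that produces a reversible fatty liver in rodents, and compared the livers of Wistar rats with those of rats whose strain the labels call Kyoto. Liver RNA was hybridised to 14 Affymetrix arrays, on which each probe set is a group of short probes for 1 transcript. Wistar controls ate plain chow (day 0, 3 arrays). Wistar rats on chow with 1% orotic acid were sampled at day 3 (2 arrays) and day 14 (3 arrays), and Kyoto rats on the same 1% chow at days 1, 3 and 14 (2 arrays each). No transgene or deletion was involved, the tissue in every group was the left lateral lobe of the liver, and the age of the rats is not in the labels. Kyoto rats on plain chow were not analysed here, so a strain difference in fed rats cannot be told apart from one present before feeding. Nothing in the labels ties each array to an animal of its own, so p-values measure the spread between these arrays.

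Cholesterol is made from acetyl-CoA by a chain of enzymes in the cytosol and the endoplasmic reticulum, and the liver is a main site of it. The early steps give mevalonate and isoprenoid diphosphates, which also feed the synthesis of ubiquinone, dolichol and prenyl anchors. Squalene is the first intermediate committed to sterols; it is oxidised, closed to lanosterol and then trimmed to cholesterol. Transcription of most of these enzymes is driven by the sterol regulatory element binding proteins, which are held back when sterols are plentiful.

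The 5 enzymes stand at separate points of that chain. Acat2 is the cytosolic thiolase that joins acetyl-CoA units into acetoacetyl-CoA. Idi1 isomerises isopentenyl diphosphate to dimethylallyl diphosphate. Sqle, squalene epoxidase, makes the first oxygenation of squalene and is a rate-controlling step. Cyp51 removes the 14-alpha methyl group of lanosterol, and Msmo1 oxidises the methyl groups at carbon 4.

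The sequence upstream of 4 of the 5 genes, from RefSeq on build GRCr8, is shown because the genes were studied as a group. Each line holds the 250 bases before the annotated start of the gene, 5' to 3' on the gene's strand, and capitals mark every match to the letters searched. The Acat2 window is chr1:50100590-50100839 (+), the Idi1 window chr17:66547525-66547774 (-), the Cyp51 window chr4:30991443-30991692 (+) and the Msmo1 window chr16:29746863-29747112 (+).
Acat2: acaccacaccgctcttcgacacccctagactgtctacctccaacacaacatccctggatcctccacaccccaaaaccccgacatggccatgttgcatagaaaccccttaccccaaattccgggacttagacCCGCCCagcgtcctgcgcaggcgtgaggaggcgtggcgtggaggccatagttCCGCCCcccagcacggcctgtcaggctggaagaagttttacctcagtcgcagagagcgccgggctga
Idi1: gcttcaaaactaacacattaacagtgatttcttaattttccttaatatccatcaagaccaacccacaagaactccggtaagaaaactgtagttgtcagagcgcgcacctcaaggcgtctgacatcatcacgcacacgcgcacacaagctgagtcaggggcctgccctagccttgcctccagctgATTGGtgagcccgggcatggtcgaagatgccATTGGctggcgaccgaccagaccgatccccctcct
Cyp51: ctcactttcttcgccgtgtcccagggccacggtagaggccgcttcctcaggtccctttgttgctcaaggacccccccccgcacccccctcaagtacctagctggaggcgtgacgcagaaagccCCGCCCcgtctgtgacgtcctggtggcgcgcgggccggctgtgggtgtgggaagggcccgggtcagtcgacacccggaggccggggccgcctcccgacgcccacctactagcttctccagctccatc
Msmo1: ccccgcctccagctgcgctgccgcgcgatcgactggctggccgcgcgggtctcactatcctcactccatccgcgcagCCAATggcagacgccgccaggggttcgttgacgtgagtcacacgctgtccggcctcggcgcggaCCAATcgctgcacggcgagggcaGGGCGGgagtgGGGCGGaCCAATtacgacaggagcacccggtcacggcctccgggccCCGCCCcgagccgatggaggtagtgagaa

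The letters searched, on both strands, were the CCAAT box (CCAAT, or ATTGG on the other strand), the GC box (GGGCGG, or CCGCCC), a sterol regulatory element (TCACNCCAC, or GTGGNGTGA), the E-box (CACGTG) and a cyclic AMP element (TGACGTCA). No match overlapped another. Acat2 had GC box letters beginning 119 and 67 bases before the start, and Cyp51 had them 127 bases before it. Idi1 had CCAAT box letters, in the reverse sense, 66 and 35 bases before the start. Msmo1 held CCAAT letters at 173, 109 and 68 bases and GC box letters at 86, 75 and 29 bases, so both motifs recurred in the bases nearest the start. None of the 4 windows had a match to the other 3 patterns.

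Among 33469 promoter windows of the same length, 34% held the CCAAT letters, 30.5% the GC box, 0.974% the sterol pattern, 5.59% the E-box and 1.59% the cyclic AMP pattern. At least 2 CCAAT matches were present in 9.42% of all windows and at least 3 in 2.52%, against 2 in Idi1 and 3 in Msmo1. Of the 16 enzymes of the whole route with a window in the table, 13 held CCAAT letters (81.2%) and 14 the GC box (87.5%). The E-box matched 1 of the 16 (6.25%), and the sterol and cyclic AMP patterns matched 0. The windows of the 4 genes were 52.8% to 70.8% G and C, above the median of 51.2% over all windows, and letters made of G and C match more often in such sequence. A match is a description of letters, not of a bound site. Variants of the letters, and bases outside the windows, were not searched. A pattern without a match, such as the sterol pattern, therefore does not show that such a site is absent.

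Signals are given as log2 of the deposited array signal after normalization between arrays; a floor at 6.85 stands for signals too dim to rank. They are relative units, and the probes of different genes differ in brightness, so levels are compared between groups and not between genes.

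Acat2 was higher on the fed Wistar arrays than on every Kyoto array. The log2 signals were 10.03, 8.59 and 9.60 in Wistar controls, 9.79 and 10.04 in Wistar rats at day 3, and 10.57, 9.97 and 9.76 at day 14. In Kyoto rats they were 9.01 and 8.79 at day 1, 8.94 and 8.51 at day 3, and 8.13 and 8.86 at day 14. The 5 fed Wistar arrays thus lay above all 6 Kyoto arrays, whereas the controls spanned both ranges because control 2, at 8.59, sat among the Kyoto values. Acat2 was picked for a lower signal in fed Kyoto rats, so this separation is a description. Day by day, 21.2% of all features at day 3 and 12.6% at day 14 were lower in Kyoto rats without overlap. The share with all these arrays apart was not counted. Group means followed the order Wistar day 14 (10.10 ± 0.42, SD), Wistar day 3 (9.91 ± 0.17), Wistar control (9.41 ± 0.74), Kyoto day 1 (8.90 ± 0.15), Kyoto day 3 (8.73 ± 0.31) and Kyoto day 14 (8.50 ± 0.52). No gap between neighbours in that order was more than 2 of its standard errors, and the levels of the 3 Kyoto days overlapped.

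Idi1 had the widest strain difference of the 5. Its log2 signals were 9.19, 7.61 and 8.94 in Wistar controls, 9.97 and 9.54 at day 3, and 10.11, 9.65 and 8.32 at day 14 in Wistar rats. In Kyoto rats they were 6.85 and 8.15 at day 1, 7.89 and 8.40 at day 3, and 7.12 and 7.06 at day 14. The first Kyoto day 1 array was at the floor, so its true level may be lower, and the day 14 arrays of that strain were close to it. Wistar day 14 replicate 3, at 8.32, was the only fed Wistar array below a Kyoto array, namely Kyoto day 3 replicate 2. The means ran from Wistar day 3 (9.75 ± 0.31, SD) through Wistar day 14 (9.36 ± 0.93), control (8.58 ± 0.85), Kyoto day 3 (8.14 ± 0.36) and Kyoto day 1 (7.50 ± 0.92) to Kyoto day 14 (7.09 ± 0.043), again with overlap between neighbours.

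Sqle had similar means in 5 of the 6 groups and was low in Kyoto livers at day 14. Wistar controls had log2 signals of 10.10, 9.12 and 9.96, Wistar day 3 had 9.27 and 9.15, and Wistar day 14 had 10.03, 8.66 and 8.95. Kyoto day 1 had 9.48 and 8.87, Kyoto day 3 had 8.78 and 9.62, and Kyoto day 14 had 6.95 and 7.29. The highest day 14 Kyoto array, at 7.29, was below the lowest array of any other group, at 8.66. The means of the other groups were 9.73 ± 0.53 (SD) in controls and 9.21 ± 0.087, 9.21 ± 0.72, 9.20 ± 0.60 and 9.18 ± 0.43 in Wistar day 3, Wistar day 14, Kyoto day 3 and Kyoto day 1. The gap from the lowest of these to Kyoto day 14 (7.12 ± 0.24) was 2.05, more than 2 of its standard errors. The ranges did not overlap, and 19.1% of all features were likewise lower at Kyoto day 14 than at day 1. Sqle was picked for its low day 14 signal, so the gap is a description.

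By the probe set that represents it, Cyp51 was even across the Wistar arrays and lower in Kyoto rats at day 14. Its log2 signals were 10.93, 10.48 and 10.58 in controls, 10.77 and 11.14 in Wistar rats at day 3, and 10.84, 10.91 and 10.93 at day 14. In Kyoto rats they were 9.85 and 10.76 at day 1, 9.998 and 10.28 at day 3, and 8.93 and 9.77 at day 14. All Wistar arrays were therefore between 10.48 and 11.14, and Kyoto day 1 replicate 2 was the only Kyoto array inside that range. In order the means were 10.95 ± 0.26 (SD) in Wistar day 3, 10.89 ± 0.046 in Wistar day 14, 10.66 ± 0.23 in controls, 10.31 ± 0.64 in Kyoto day 1, 10.14 ± 0.20 in Kyoto day 3 and 9.35 ± 0.60 in Kyoto day 14. The gap of 0.79 from Kyoto day 3 to day 14 was the only one of more than 2 of its standard errors. It is a description, since Cyp51 was picked on a comparison that used these arrays. Between those days 23% of all features were lower without overlap.

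Msmo1, like Sqle, had its low signals in Kyoto livers at day 14. The Wistar log2 signals were 11.79, 10.78 and 11.67 in controls, 11.37 and 11.83 at day 3, and 12.23, 11.62 and 11.46 at day 14. The Kyoto signals were 11.68 and 11.40 at day 1, 10.98 and 11.10 at day 3, and 9.47 and 10.18 at day 14. At day 1 the Kyoto arrays were inside the Wistar range; the day 14 arrays were below every other array. The means were 11.77 ± 0.41 (SD) in Wistar day 14, 11.60 ± 0.33 in Wistar day 3, 11.54 ± 0.20 in Kyoto day 1, 11.41 ± 0.55 in controls, 11.04 ± 0.083 in Kyoto day 3 and 9.83 ± 0.50 in Kyoto day 14. Only the step of 1.21 from Kyoto day 3 to day 14 exceeded the spread of its neighbours.

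**Figure D1:**
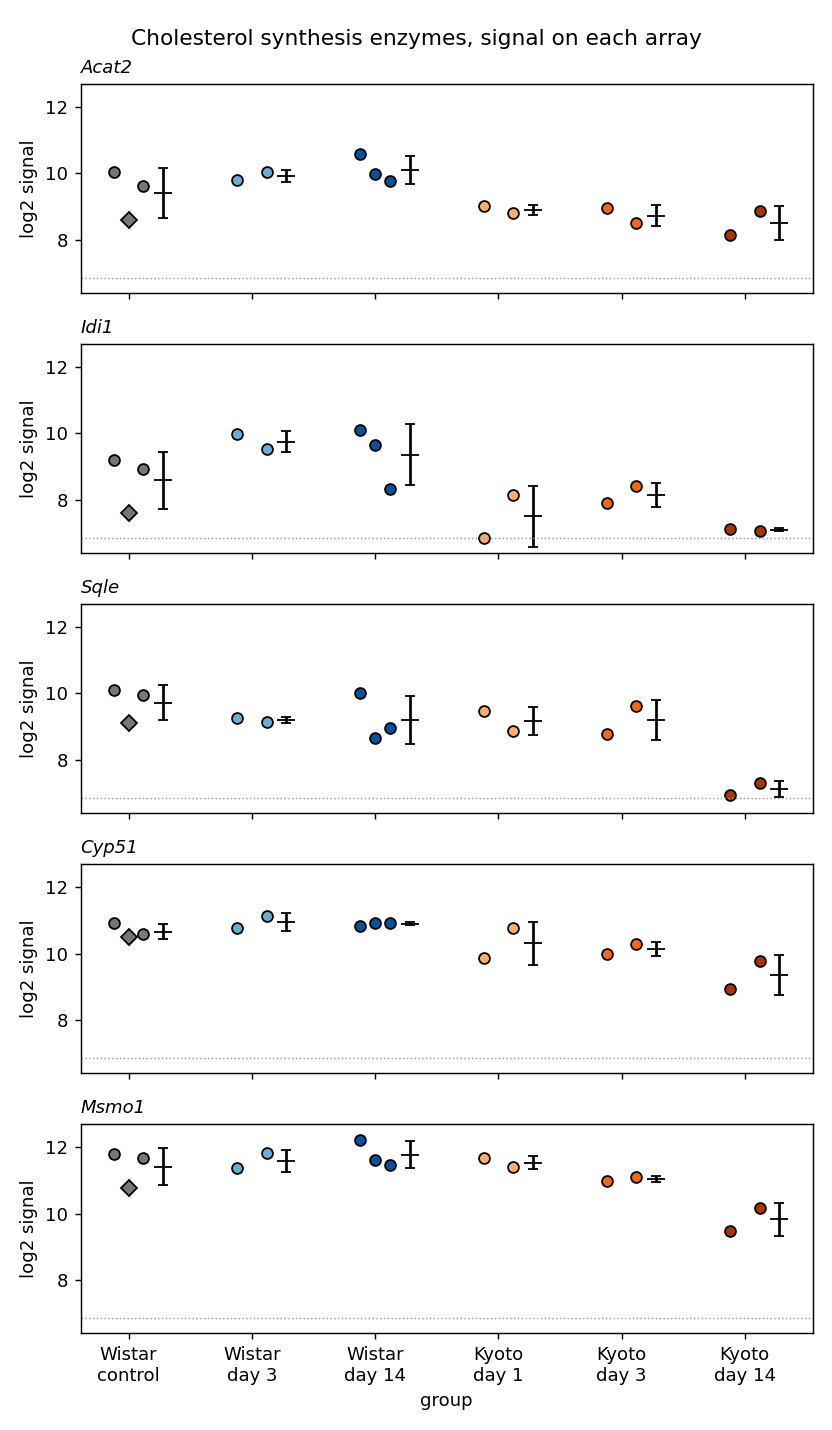
Log2 signal (y axis) of the 5 enzymes in the 6 groups (x axis). Points are arrays, the diamond is Wistar control 2, and the line with bars beside each group is its mean ± SD; the dotted line is the floor at 6.85. The 2 Kyoto day 14 arrays are the lowest in Sqle (6.95 and 7.29), Cyp51 (8.93 and 9.77) and Msmo1 (9.47 and 10.18).

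One control stood apart from its label. Wistar control 2 had the lowest signal of the 3 controls for all 5 enzymes, and over all tested features its nearest array was Kyoto day 3 replicate 2 (Pearson r = 0.960), not another control. Differences from the controls for named genes are therefore given with and without it, except in the lot batch values. Kyoto day 1 replicate 1 was least like the rest, with a median correlation of 0.895, and was also 1 of 3 arrays with blank entries in the deposited table. Wistar day 14 replicate 3 and Wistar control 3, the others with blank entries, were nearest to each other (r = 0.970) and carried no lot batch label.

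In fed rats, averaged over days 3 and 14, the Kyoto signal was below the Wistar signal for each enzyme. The log2 difference, Kyoto less Wistar, was -1.40 ± 0.29 (SE) for Acat2, -1.94 ± 0.40 for Idi1, -1.05 ± 0.31 for Sqle, -1.18 ± 0.23 for Cyp51 and -1.25 ± 0.25 for Msmo1. In the same order the Kyoto signals were 2.63-, 3.83-, 2.07-, 2.26- and 2.38-fold lower. Of the 5, 4 passed the adjusted p threshold of 0.05 in this comparison, where 1.99% of all features were called lower and 3.25% called in all; since the genes were picked on it, nothing is read from that count. Lss, the cyclase of the route that closes the sterol ring, was outside the threshold, with a difference of -0.93 ± 0.24. With the lot batch label as a block the differences were -1.40, -2.14, -1.07, -1.15 and -1.21, and the count of all features called went from 62 to 21, with 1 enzyme of the route, Idi1, among them. Leaving out Kyoto day 14 replicate 1 brought that count to 13, and leaving out Wistar day 3 replicate 2 brought it to 16, with 0 enzymes of the route past the threshold in either case. It was 27 and 36 without Kyoto day 3 replicates 1 and 2, 26 without Kyoto day 14 replicate 2 and 26 without Wistar day 3 replicate 1.

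The fed strain difference is also given for each day, as a description, since Sqle and Msmo1 were picked for a low Kyoto signal at day 14 and the others for the mean over both days. At day 3 the Kyoto signal was lower than the Wistar signal by 1.19 ± 0.42 (SE, log2) for Acat2, 1.61 ± 0.60 for Idi1, 0.81 ± 0.34 for Cyp51 and 0.55 ± 0.37 for Msmo1, while for Sqle the difference was -0.01 ± 0.45. The arrays of the strains did not overlap for Acat2, Idi1, Cyp51 and Msmo1, and 21.2% of all features were likewise lower without overlap. At day 14 the differences were -1.60 ± 0.39 for Acat2, -2.27 ± 0.54 for Idi1, -2.09 ± 0.41 for Sqle, -1.54 ± 0.31 for Cyp51 and -1.94 ± 0.34 for Msmo1. All 5 enzymes were then lower without overlap, as were 12.6% of all features. The difference of differences over those days was -2.08 ± 0.61 for Sqle, -1.39 ± 0.50 for Msmo1, -0.73 ± 0.46 for Cyp51, -0.66 ± 0.81 for Idi1 and -0.42 ± 0.57 for Acat2, and 0% of features passed the limma threshold for it (98 had an unadjusted p under 0.05).

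**Figure D2:**
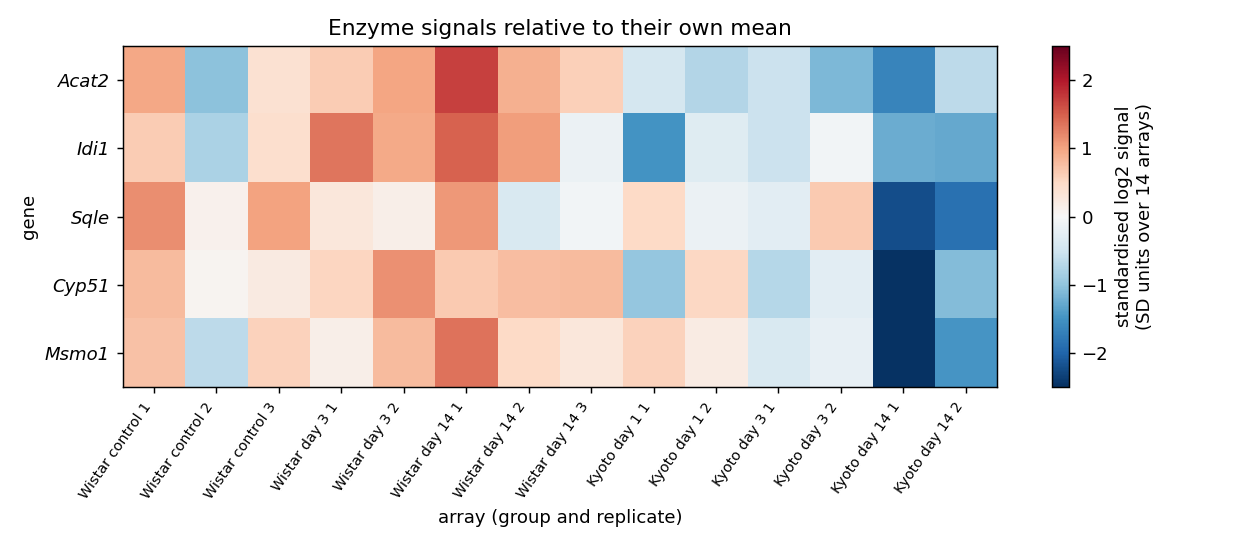
Signals of the 5 enzymes (rows of the plot) on the 14 arrays (columns), each expressed in SD units around the mean of that gene over all arrays. Kyoto day 14 replicate 1 is the darkest blue column, at -2.47 SD for Cyp51 and Msmo1 and -2.22 SD for Sqle, and Wistar day 14 replicate 1 holds the highest Acat2 and Msmo1 values, 1.71 and 1.36 SD.

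Within the Kyoto strain, day 14 was set against the earlier days. From day 1 to day 14 the log2 signal differed by -2.05 ± 0.45 (SE) for Sqle, -1.71 ± 0.37 for Msmo1, -0.96 ± 0.34 for Cyp51, -0.41 ± 0.42 for Acat2 and -0.41 ± 0.60 for Idi1. Sqle, Cyp51 and Msmo1 were lower on both day 14 arrays than on both day 1 arrays, a pattern that 19.1% of all features also had. From day 3 to day 14 the differences were -2.08 ± 0.45 for Sqle, -1.21 ± 0.37 for Msmo1, -1.05 ± 0.60 for Idi1, -0.79 ± 0.34 for Cyp51 and -0.23 ± 0.42 for Acat2. Idi1, Sqle, Cyp51 and Msmo1 were lower without overlap here, against 23% of features. The share of features called at an adjusted p of 0.05 was 0.0524% and 0% in these comparisons, with 192 and 88 features at an unadjusted p under 0.05 in the limma fit, and the picked genes were not among those called.

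Single arrays weighed on the smaller of these values. The day 14 less day 1 value of Idi1 was -1.06 without Kyoto day 1 replicate 1, which lay at the floor, and 0.25 without replicate 2. The day 14 less day 3 value of Acat2 was 0.13 without Kyoto day 14 replicate 1 and -0.60 without replicate 2, so no direction is given for it. For Cyp51 that value was -0.37 and -1.21 when the same arrays were left out. Sqle and Msmo1 kept a lower day 14 signal whichever single array of the groups compared was left out; the day 14 less day 3 value nearest to 0 was then -1.65 for Sqle, without Kyoto day 3 replicate 2, and -0.86 for Msmo1, without Kyoto day 14 replicate 1. Leaving out Kyoto day 1 replicate 2 raised the count of all features called between days 1 and 14 from 1 to 162.

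The comparisons not used to pick the genes were tested by limma over all 1909 features. They share arrays with those that were used, and the Wistar comparisons share their controls or their fed arrays with each other. In Wistar rats, 3 days of orotic acid gave log2 differences from control of 1.17 ± 0.54 (SE) for Idi1 (adjusted p = 0.475), 0.51 ± 0.39 for Acat2 (0.692), 0.29 ± 0.31 for Cyp51 (0.805), 0.18 ± 0.34 for Msmo1 (0.902) and -0.51 ± 0.41 for Sqle (0.718). None of the 5 enzymes passed the threshold, and nor did any other feature (0%, with 200 features at an unadjusted p under 0.05 and a lowest adjusted p of 0.0678). Only Idi1 was higher on both day 3 arrays than on the 3 control arrays, as were 14.6% of features. Without control 2 the differences shrank to 0.68 for Idi1, 0.10 for Acat2, 0.20 for Cyp51 and -0.13 for Msmo1, and that of Sqle became -0.82. The sign for Msmo1 also turned with the authors' own scaling (-0.08) and with median scaling (-0.10).

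After 14 days the Wistar livers gave differences from control of 0.78 ± 0.49 (SE) for Idi1, 0.69 ± 0.35 for Acat2, 0.36 ± 0.30 for Msmo1, 0.23 ± 0.28 for Cyp51 and -0.51 ± 0.37 for Sqle. The limma adjusted p was 0.937 for Acat2 and 0.991 for the other 4; 0% of features passed, 99 had an unadjusted p under 0.05, and no enzyme was clear of the controls on every array (3.61% of features were higher and 6.34% lower in that way). The 95% intervals still allowed a difference of up to 1.82 for Idi1 and 1.44 for Acat2, and down to -1.31 for Sqle. Without control 2 the values were 0.29, 0.28, 0.04, 0.14 and -0.82 in the same order. Most of the margin of Acat2 and Idi1 over the controls thus came with that array, and the lower value of Sqle was larger without it; 0 features passed in either case.

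Between day 3 and day 14 the Wistar signals differed by 0.19 ± 0.39 (SE) for Acat2, -0.39 ± 0.54 for Idi1, -0.00025 ± 0.41 for Sqle, -0.06 ± 0.31 for Cyp51 and 0.18 ± 0.34 for Msmo1, with limma adjusted p-values from 0.993 to 1. Again 0% of features passed, and 85 had an unadjusted p under 0.05. With the authors' scaling Sqle and Cyp51 turned positive, at 0.05 and 0.12, so neither has a direction. The 95% intervals were -0.89 to 0.89 for Sqle and -0.55 to 0.90 for Msmo1.

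From day 1 to day 3 in Kyoto rats the differences were -0.50 ± 0.37 (SE) for Msmo1 (limma adjusted p = 0.864), -0.18 ± 0.42 for Acat2 (0.955), -0.17 ± 0.34 for Cyp51 (0.936), 0.02 ± 0.45 for Sqle (0.994) and 0.65 ± 0.60 for Idi1 (0.903). Here 0% of features passed, with 111 at an unadjusted p under 0.05. Msmo1 was lower on both day 3 arrays than on both day 1 arrays, as were 12.6% of features. Without Kyoto day 1 replicate 2 the count over all features was 73, with 1 enzyme of the route, Mvd, a mevalonate pathway decarboxylase named after its values were seen, among them at -1.27; without replicate 1 it was 1. With both arrays Mvd differed by -1.02 ± 0.27, with a limma adjusted p of 0.783.

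The lot batch label could be followed within the Wistar comparisons. Among arrays of lot batch 1, day 14 less control was 0.96 ± 0.46 (SE) for Acat2, 1.48 ± 0.53 for Idi1, 0.64 ± 0.39 for Msmo1, 0.17 ± 0.38 for Cyp51 and -0.27 ± 0.50 for Sqle. On the pair of arrays with no lot batch the same difference was 0.16 for Acat2, -0.62 for Idi1, -0.20 for Msmo1, 0.35 for Cyp51 and -1.01 for Sqle, with 1 array on each side and no test. Idi1 and Msmo1 thus pointed opposite ways in the 2 sets of arrays. At day 3 the lot batch 1 values were 1.57 for Idi1 and 0.48 for Acat2, and those without the label 0.59 and 0.43. All Kyoto arrays carried lot batch 1; in those arrays alone the fed strain difference was -1.42 for Acat2, -2.31 for Idi1, -1.15 for Sqle, -1.08 for Cyp51 and -1.21 for Msmo1.

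Several of the genes were read by more than 1 probe set, compared here in a fit of all probe sets. Acat2 had 2, Idi1 2, Sqle 1, Cyp51 5 and Msmo1 2. The second Acat2 probe set, at the floor on 3 arrays, followed the first (Pearson r = 0.899 over 14 arrays, Spearman rho = 0.890) and gave a fed strain difference of -1.59 ± 0.54 (SE). The second Msmo1 probe set had r = 0.889 and rho = 0.824, with -1.23 ± 0.40 between the strains and -1.48 ± 0.59 from day 3 to day 14 in Kyoto rats. For both genes the direction of these Kyoto and strain differences was the same by either probe set, but from day 3 to day 14 in Wistar rats the second Msmo1 probe set gave -0.35 ± 0.54 against 0.18 by the first.

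For Cyp51 the 5 probe sets were less alike. Pearson correlations with the brightest were 0.868, 0.736, 0.583 and 0.415, with Spearman rho of 0.596, 0.473, 0.569 and 0.659 in the same order, and the last of these was at the floor on 7 arrays. Fed strain differences ran from -0.74 ± 0.40 (SE) to -1.18 ± 0.23, all on the side of a lower Kyoto signal. From day 3 to day 14 in Kyoto rats, 4 probe sets gave -0.59 to -1.23 and the dimmest was at the floor on all of these arrays, so it gave no value. The other Idi1 probe set had no value on 3 arrays and deposited signals of only 2.65 to 63.5 on the rest, under the floor of 115, so it was left out.

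**Figure D3:**
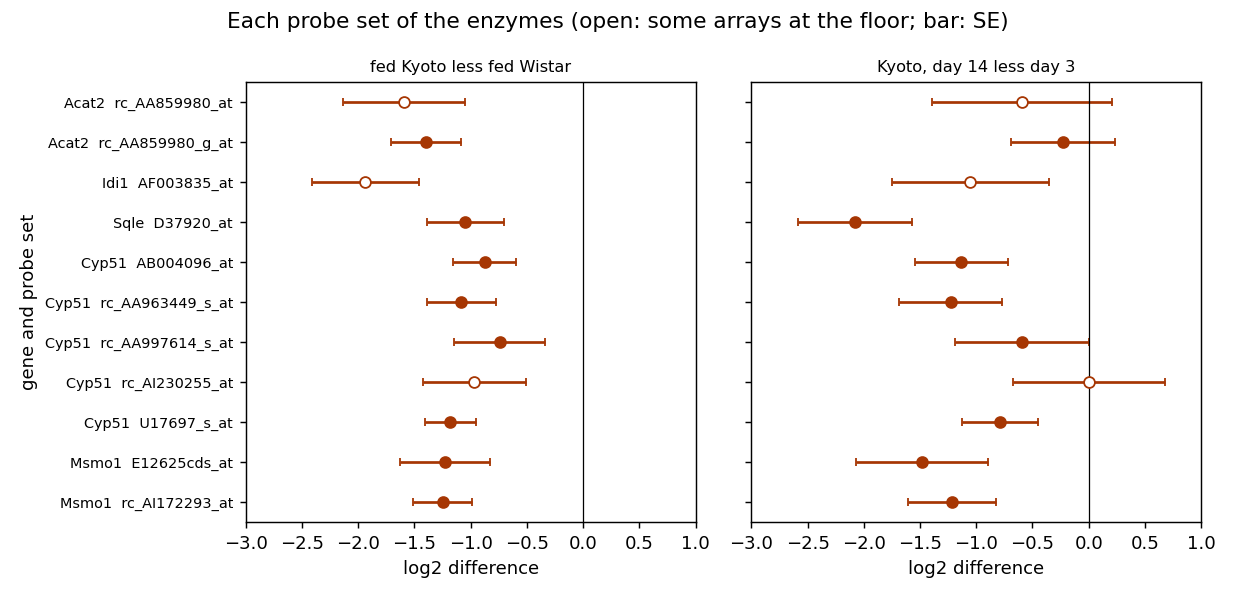
Fitted log2 differences (x axis) with SE bars for 11 probe sets of the 5 enzymes (y axis), for fed Kyoto less fed Wistar rats and for Kyoto day 14 less day 3. Open points have some arrays at the floor. All 11 lie left of 0 between the strains, from -0.74 to -1.94, and Sqle is farthest left in the time comparison, at -2.08. The Cyp51 point at 0 in the time comparison is set by the floor.

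Because the 5 enzymes were picked for low signals in overlapping Kyoto groups, their correlations over all arrays and over group means follow in part from the picking and are descriptions. Pearson correlations between pairs over 14 arrays ran from 0.564 for Idi1 with Sqle to 0.865 for Sqle with Msmo1. After each group mean was taken off, the correlation was 0.926 for Acat2 with Msmo1, 0.785 for Sqle with Msmo1 and 0.064 for Sqle with Cyp51. Acat2 and Msmo1, which open and nearly close the chain, thus shared most of their spread between replicates, while Sqle and Cyp51 were alike in their group means (r = 0.841 over 6 groups). All pairs share the same arrays and their scaling. Without control 2 the lowest and highest correlations over the arrays were 0.587 and 0.888. The correlations after group means were taken off, and those over group means, were not computed without it.

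Other enzymes of the route were set beside them. Of 21 on a list of the route, 14 were read on the table and 13 were tested; Hsd17b7 was too dim, and the others were not used here. None of the 13 passed the limma threshold in the 4 tested comparisons (0 higher and 0 lower in each). At day 14, 13 of 13 were lower in Kyoto than in Wistar rats, with a median log2 difference of -0.80, against 47.8% lower and a median of 0.02 over all features. Leaving out the 5 picked genes, 8 of 8 were lower, by a median of 0.43 on the log2 scale, and 13 of 13 were lower with either other scaling too. In fed rats over both days 11 of 13 were lower (median -0.62), or 6 of 8 without the picked genes (median -0.30), where 45.6% of all features were.

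In the middle of the chain the strain differences had opposite signs on the days sampled or were near 0. Fdps and Fdft1 were named after their values were seen. Fdps, which builds farnesyl diphosphate between Idi1 and Sqle, differed between fed strains by 0.32 ± 0.24 (SE), and Fdft1, the squalene synthase that supplies Sqle, by 0.13 ± 0.29. At day 3 both were higher in Kyoto than in Wistar rats by 0.63, with standard errors of 0.36 and 0.43, and at day 14 they differed by -0.00 and -0.36. Their Kyoto signals were nonetheless lower at day 14 than at day 3, by 0.74 ± 0.36 and 0.85 ± 0.43. Fdps had its highest means in Kyoto rats at days 1 and 3, where the arrays spanned 12.84 to 13.34, against 12.01 to 12.05 on the control arrays. The fed Wistar arrays spanned 11.95 to 12.84 at day 3 and 11.88 to 13.03 at day 14, so they overlapped the Kyoto range.

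Among the later enzymes, named after their values were seen, Lss and Nsdhl had larger strain differences than Ebp (-0.30 ± 0.22, SE, between fed strains) and Dhcr7 (-0.27 ± 0.22); the early kinase Mvk had -0.34 ± 0.27. Lss differed by -1.06 ± 0.36 (SE) between strains at day 3 and -0.80 ± 0.32 at day 14. In Wistar rats Lss was higher by 1.08 ± 0.32 at day 3 than in controls, with a limma adjusted p of 0.251, and by 0.83 ± 0.33 without control 2. Nsdhl, which works on the same carbon 4 methyl groups as Msmo1, differed between strains by -0.21 ± 0.27 at day 3 and -1.03 ± 0.24 at day 14. Its Kyoto signal was lower by 0.61 ± 0.27 at day 14 than at day 3. Between those days Dhcr7, the last reductase, differed by 0.10 ± 0.33 and Ebp by -0.30 ± 0.33.

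**Figure D4:**
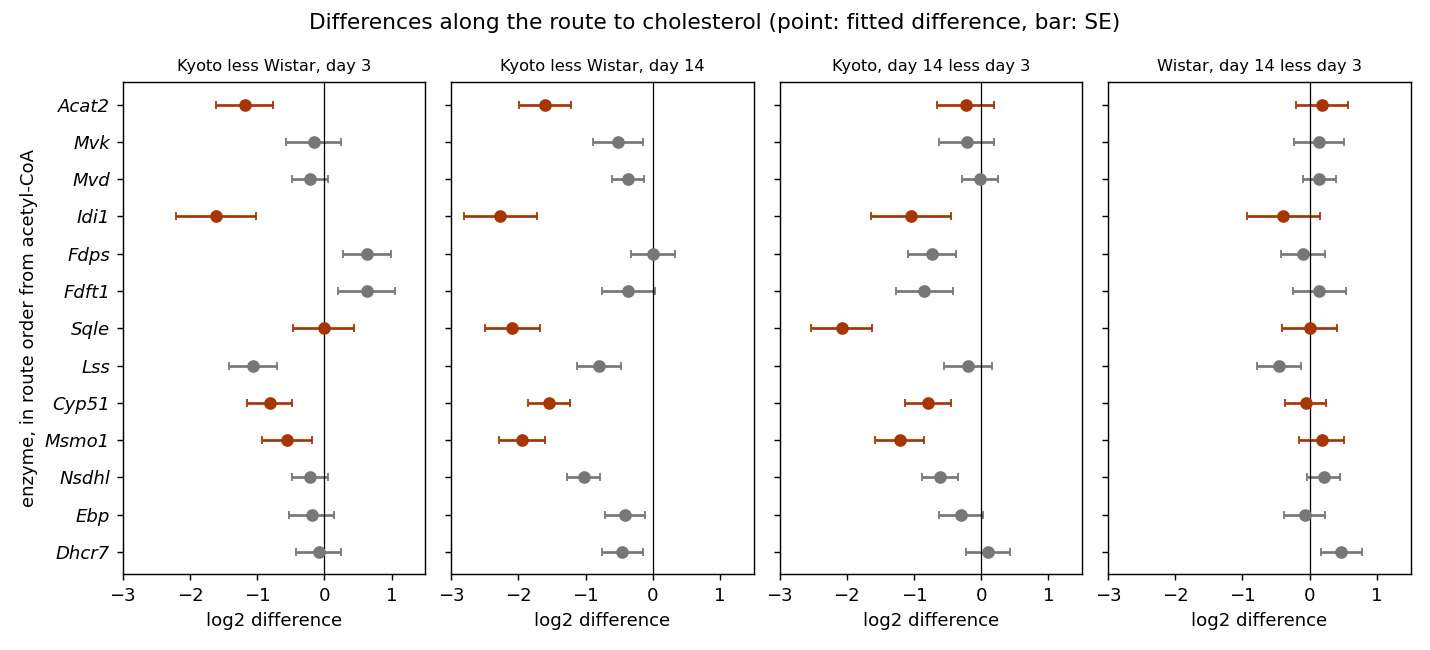
Fitted log2 differences (x axis) with SE bars for the 13 tested enzymes, ordered along the route from acetyl-CoA (y axis), in 4 comparisons; the 5 picked enzymes are in brown. At day 14 every enzyme is at or left of 0 between strains, from -0.00 for Fdps to -2.27 for Idi1, while the Wistar panel lies between -0.46 and 0.47.

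In Wistar rats the route as a list had 10 of 13 tested enzymes higher than control at day 3 (median 0.25) and 11 of 13 at day 14 (median 0.29), where 54.9% and 54.0% of all features were lower. Acat2, Idi1, Cyp51 and Msmo1 were picked on a comparison that used the fed Wistar arrays, so these counts follow in part from the picking. Leaving out the picked genes, 6 of 8 were higher at day 3 (median 0.20) and 7 of 8 at day 14 (median 0.29). Under the authors' scaling the day 3 count was 8 of 13, or 5 of 8 without the picked genes. Without control 2 the counts were 8 of 13 (median 0.10) and 10 of 13 (median 0.18). Sqle was among the lower enzymes at both days, and Nsdhl the same, at -0.48 ± 0.24 (SE) and -0.27 ± 0.22, or -0.61 and -0.40 without control 2. None of these values passed the test.

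Genes that sense, take up or use sterols were counted from lists in the same fit. Of 13 genes of sterol sensing and uptake, 4 were tested, with 0 passing in either direction in the 4 tested comparisons. Insig1, which retains the sterol regulatory element binding proteins in the endoplasmic reticulum, differed from control by -1.08 ± 0.35 (SE) in Wistar rats at day 3 (limma adjusted p = 0.288) and by -0.44 ± 0.31 at day 14, or by -1.17 and -0.53 without control 2. Kyoto less Wistar it differed by 0.78 ± 0.38 at day 3 and -0.61 ± 0.35 at day 14, which gave 0.08 ± 0.26 as the mean, and in Kyoto rats its day 14 signal was lower by 0.75 ± 0.38 than at day 3. Srebf1, which encodes the binding protein more tied to fatty acid synthesis, went the other way in Kyoto rats, at 0.88 ± 0.42 from day 3 to day 14, and by 0.48 ± 0.28 between fed strains.

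Of 14 genes of cholesterol use and export, 6 were tested and 0 passed in either direction in those comparisons. Cyp7a1, which opens the classic path to bile acids, differed from control in Wistar rats by -0.47 ± 0.45 (SE) at day 3 and 0.34 ± 0.40 at day 14 (-0.45 and 0.36 without control 2), and between fed strains by 0.39 ± 0.33. Of 10 enzymes of the isoprenoid branches and of ketone bodies, 3 were tested (Acat1, the mitochondrial thiolase, Bdh1 and Fnta) and 0 passed in either direction.

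The features most like the 5 enzymes were ranked by Pearson r, over 14 arrays, with the mean of their standardised signals, among 1497 features with a gene symbol. The 10 highest were Gng10 (0.868), Creg1 (0.857), Fmo1 (0.823), Ces2e (0.812), Nsdhl (0.809), Agxt2 (0.789), Tars1 (0.770), Irf1 (0.769), Blvra (0.767) and Mif (0.753). Nsdhl was the only enzyme of the route among the 10; Lss stood at rank 25, and 6 of the 8 other tested enzymes of the route were among the top 25%. Outside it were Fdft1 at rank 408 and Fdps at rank 829, with r = -0.07. Without control 2, Nsdhl moved from rank 5 to rank 3, with r = 0.857. These ranks are descriptions, since the 5 enzymes were picked on the same arrays.

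The 5 lowest correlations were those of Cdh17 (-0.887), Kdr (-0.876), Acox2 (-0.875), Akr1c13 (-0.853) and Hspb1 (-0.820). All 10 of the most alike had lower signals in fed Kyoto than in fed Wistar rats, by 0.52 or more on the log2 scale, and all 5 of the least alike had higher ones. Ces2e, a carboxylesterase at the floor on 7 arrays, differed by -3.65 on the log2 scale between fed strains, and Akr1c13, an aldo-keto reductase, by 2.58. The ranking was made against genes picked for low Kyoto signals on these arrays. A fed strain difference with the sign of the correlation therefore follows in part from the picking and is a description.

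Markers of liver cell types were read on the same arrays. Of 10 hepatocyte markers 9 were measured, and their summed signal was even, from 133476 to 155462 over all arrays. Of 5 endothelial markers 2 were measured, Kdr and Pecam1, and their sum was 258 to 284 on fed Wistar arrays, 271 to 368 in controls, 320 to 400 in Kyoto rats at day 1 and 336 to 474 at days 3 and 14. Pecam1 was at the floor on 10 of the 14 arrays, all 5 fed Wistar arrays among them, so the sum was mostly Kdr. Across 14 arrays the sum had r = -0.896 with the mean signal of the enzymes, and Kdr alone had -0.876. Of 10 macrophage markers 4 were measured (sums of 3834 to 6206), of 9 stellate cell and fibroblast markers 6 (5061 to 12381) and of 4 erythroid markers 2 (5832 to 16442), and their correlations with the enzymes were -0.424, -0.313 and -0.390. Of 5 cholangiocyte markers 2 were measured and both were at or near the floor. From day 1 to day 14 in Kyoto rats all 5 tested stellate cell and fibroblast markers were lower in mean (median -0.92, none past the limma threshold), beside a median of -0.96 for the enzymes; their summed signal was 10497 to 12381 at day 1, 6034 to 8553 at day 3 and 8654 to 8669 at day 14. The part of these cell types in the strain and day differences was not tested. In whole liver, fewer cells that express an enzyme and less RNA per cell cannot be told apart.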

How the data were processed

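The authors deposited 1 intensity signal per probe set and array, not log-transformed. The submitters' processing notes name MAS5; its version and scaling target are not stated in the sources used here. The table held 4502 probe sets, 24 of them controls, with values from 0.64 to 47932; 11 of 14 arrays shared a median of 233.1972, and 375 probe sets lacked a value on at least 1 of the other 3 arrays and were left out.

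Log2 signals were quantile normalized (limma 3.58.1, R 4.3.3), set to a floor at the 25th percentile (115, or 6.85 on the log2 scale), and a gene was represented by its probe set of highest mean. The upper 60% of 3181 features, 1909, were fitted together, as 6 group means with 8 residual degrees of freedom (lmFit, eBayes with trend), with Benjamini-Hochberg adjustment over all 1909. The model was tested on simulated data. Groups came from the source labels, and lot batch from the descriptions. The number of arrays limits the precision. Alternatives were other scalings, floors, filters, probe set rules, fits and array weights, and leaving out each array; a block for arrays with blank entries and a fit of lot batch 1 alone were added after the data were seen. Members and gene lists were chosen with earlier results of these data known. Named genes were the 5 members, Fdft1, Insig1, Srebf1 and Cyp7a1 by list, and the 10 most and 5 least alike by Pearson r; the other route enzymes named were chosen after their values were seen. Promoter letters came from the RefSeq table (GRCr8). Figures used matplotlib 3.10.9.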

Additional observations from a re-analysis of the deposited data

How the results depend on the processing

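With 2 or 3 arrays in a group, most limits were set by single arrays, and groups of this size were not tested for an outlying value. For Msmo1 at Wistar day 3 less control the sign turned with the authors' scaling (-0.083) and median scaling (-0.096), where the median of all features moved to -0.18 and -0.19, and leaving out single arrays gave -0.13 to 0.41. At Wistar day 14 less day 3, Sqle was 0.051 with the authors' scaling, 0.059 with median scaling, 0.0078 with an offset of 50 and no floor, 0.18 with array weights and 0.070 in lot batch 1 alone. Cyp51 was 0.12, 0.13, 0.032 with a block for the arrays with blank entries, and 0.11 in lot batch 1 alone, and Msmo1 was -0.086 with the mean of all probe sets; these scalings moved the median of all features to 0.11 and 0.12. Single arrays gave -0.048 to 0.36 for Acat2, -0.77 to 0.13 for Idi1, -0.41 to 0.28 for Sqle, -0.24 to 0.12 for Cyp51 and -0.052 to 0.41 for Msmo1. In Kyoto rats, day 3 less day 1 gave -0.39 to 0.042 for Acat2, -0.0066 to 1.30 for Idi1, -0.40 to 0.45 for Sqle and -0.62 to 0.29 for Cyp51 in the same way. The cause was not tested.

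Counts of features past the threshold moved more. At Wistar day 3 less control the count of 0 became 5 with the mean of probe sets, 5 with only the groups compared, 19 with array weights and 1 in lot batch 1 alone. At Wistar day 14 it became 1 with array weights, 3 in lot batch 1 alone and 0 to 7 without single arrays. For Kyoto day 3 less day 1 it was 2 with no filter and 0 to 73 without single arrays (enzymes of the route 0 to 1). For Kyoto day 14 less day 1 the count of 1 became 3 with no filter, 2 with the mean of probe sets and 0 with only the groups compared, with array weights and in lot batch 1 alone; without single arrays it was 0 to 162, with 0 to 3 enzymes of the route. For day 14 less day 3 it was 1 with no filter and 1 with array weights. Between fed strains the count of 62 became 1 with no filter, 39 in the upper 40% of features, 21 with the lot batch block, 21 in lot batch 1 alone, 103 with only the groups compared, 135 with array weights and 13 to 57 without single arrays; the 4 enzymes of the route became 0, 1 (lot batch block), 1 (lot batch 1 alone), 7 (array weights) and 0 to 4. Under those alternatives the 5 members stayed lower in fed Kyoto rats, from -0.84 for Sqle to -2.31 for Idi1. No paired analysis was possible because the labels carry no replicate numbers that could pair arrays across groups.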
